A study of Mus musculus with 29 samples.

Results

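The Il1a and Il1b locus was taken as mm9 chr2:129110000-129215000, a stretch of 105 kb of mouse chromosome 2. Every peak and every chromatin state segment that overlaps it is a member. The deposited lists hold 183 peaks in the locus, of 1190714 peaks in 26 lists on chromosomes 1 to 19 and X. Of these, 29 overlap the Il1a interval at chr2:129125000-129136000 and 17 overlap the Il1b interval at chr2:129190000-129197000. The locus was selected on measured values of these lists: the H3K4me3 peak that appeared over Il1a at 4 h is the widest such peak of the genome. The changes below are therefore a description and carry no test.

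The cells were RAW264.7, an established macrophage line of a mouse tumour induced by the Abelson leukaemia virus. Lipopolysaccharide (LPS), a bacterial cell wall component sensed by Toll-like receptor 4, was given at 100 ng/ml for 1 h or 4 h, and untreated cells were the baseline. Chromatin immunoprecipitation and sequencing covered 7 histone marks at these 3 stages, namely H3K4me3, H3K27ac, H3K4me1, H3K36me2, H3K36me3, H3K79me2 and H3K27me3. H3K4me1 and H3K36me2 were also mapped after 1 h of flavopiridol, and after 1 h of flavopiridol followed by LPS for 4 h. Flavopiridol inhibits CDK9, the kinase that releases paused RNA polymerase. PU.1, a transcription factor that defines the macrophage lineage, was mapped in untreated cells only. The labels name 29 samples, of which 3 are input chromatin with no peak list. Each mark and condition has 1 library, so no spread between cultures can be measured and every difference is one between single libraries. Before LPS means untreated cells throughout. Read numbers are not stated in the sources, so depth is unknown. No mm9 gene annotation was used here, so the 2 genes are placed by the stated intervals and no other gene of the genome is assigned to a peak.

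Il1a encodes interleukin-1α and Il1b interleukin-1β, the founding ligands of the interleukin-1 family. Both bind the same signalling receptor and drive inflammation and fever. Interleukin-1β is made as an inactive precursor that caspase-1 cleaves. Macrophages are a main source of both, and their transcription is induced by LPS through factors such as NF-κB, acting on chromatin that PU.1 has opened. H3K4me3 and H3K27ac are known as marks of active promoters, H3K4me1 with H3K27ac as marks of active enhancers, and H3K36me3 and H3K79me2 as marks of transcribed gene bodies. H3K36me2 is broader, and H3K27me3 is laid down by Polycomb complexes over silent genes.

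Both genes lie on the minus strand in RefSeq (GRCm38.p6), so each starts at the upper edge of its interval and runs toward lower coordinates. RefSeq places Ckap2l on the lower side of Il1a, and a lncRNA on the opposite strand overlaps each gene, Gm14023 at Il1a and Il1bos at Il1b. Peaks have no strand, so marks of a gene and of its antisense partner cannot be told apart. The promoters are shown because the PU.1 peaks and the H3K4me3 peaks described below lie at or near these starts. The higher PU.1 summit at Il1a lay 639 bp beyond the upper edge of its interval, so no GGAA printed here is assigned to it. The other summit of that peak, at chr2:129135972, lay inside the interval, and no GGAA was matched to it either. The printed promoters run from 250 bases before to 50 bases after the start, from RefSeq (GRCm38.p6, minus strand, 5′ to 3′). Capitals mark TATAAA on the printed strand and GGAA, the core that PU.1 and other ETS factors bind, on either strand (TTCC where it is on the other strand).
Il1a: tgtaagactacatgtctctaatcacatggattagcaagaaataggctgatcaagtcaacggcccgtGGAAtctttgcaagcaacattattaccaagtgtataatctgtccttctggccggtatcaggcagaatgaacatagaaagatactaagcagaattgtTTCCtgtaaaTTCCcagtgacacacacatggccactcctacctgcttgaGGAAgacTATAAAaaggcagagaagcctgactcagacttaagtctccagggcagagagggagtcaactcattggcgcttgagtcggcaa
Il1b: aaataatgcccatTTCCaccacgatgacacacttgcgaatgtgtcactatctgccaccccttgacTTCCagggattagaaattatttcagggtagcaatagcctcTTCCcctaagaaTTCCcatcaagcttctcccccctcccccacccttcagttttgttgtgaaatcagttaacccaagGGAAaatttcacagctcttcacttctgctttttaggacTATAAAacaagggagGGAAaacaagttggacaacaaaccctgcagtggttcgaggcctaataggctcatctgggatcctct

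Both promoters hold 1 TATAAA, which begins 32 bases before the start of Il1a and 31 bases before that of Il1b, and 13.6% of 32851 mouse promoters of this length hold one. GGAA occurs 4 times at Il1a and 6 times at Il1b, and 96% of promoters hold it. TGANTCA, a form of the AP-1 motif, occurs once at Il1a, 12 bases before the start, and nowhere in the Il1b stretch, against 7.81% of promoters. An NF-κB-like form, GGG and CC with any 5 bases between, and TTGCNNNAA, a C/EBP-like motif, have no match in either stretch, and 50.8% and 9.56% of promoters hold them. Both strands were searched. No motif overlaps another in the Il1a stretch or in the Il1b stretch, and a match of letters is not a bound site.

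In untreated cells both genes already had a PU.1 peak, under H3K27ac and H3K4me1, at the start, but no H3K4me3, H3K36me3 or H3K79me2. These 3 marks covered 0% of the Il1a interval and 0% of the Il1b interval. The genes differed in what else was there. H3K4me1, a mark of primed enhancers, covered 47.4% of the Il1a interval and 13.4% of the Il1b interval. H3K36me2 covered 56.4% of the Il1a interval and 21.3% of the Il1b interval. H3K27me3 went the other way, with 13.1% of the Il1a interval and 83.7% of the Il1b interval, a difference of -70.7 percentage points (Il1a minus Il1b). A single H3K27me3 peak of 8649 bp, chr2:129187214-129195862, lay over the body of Il1b and ended short of the PU.1 peak at its start. Its deposited fold enrichment over the caller's background was 1.35.

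**Figure D1:**
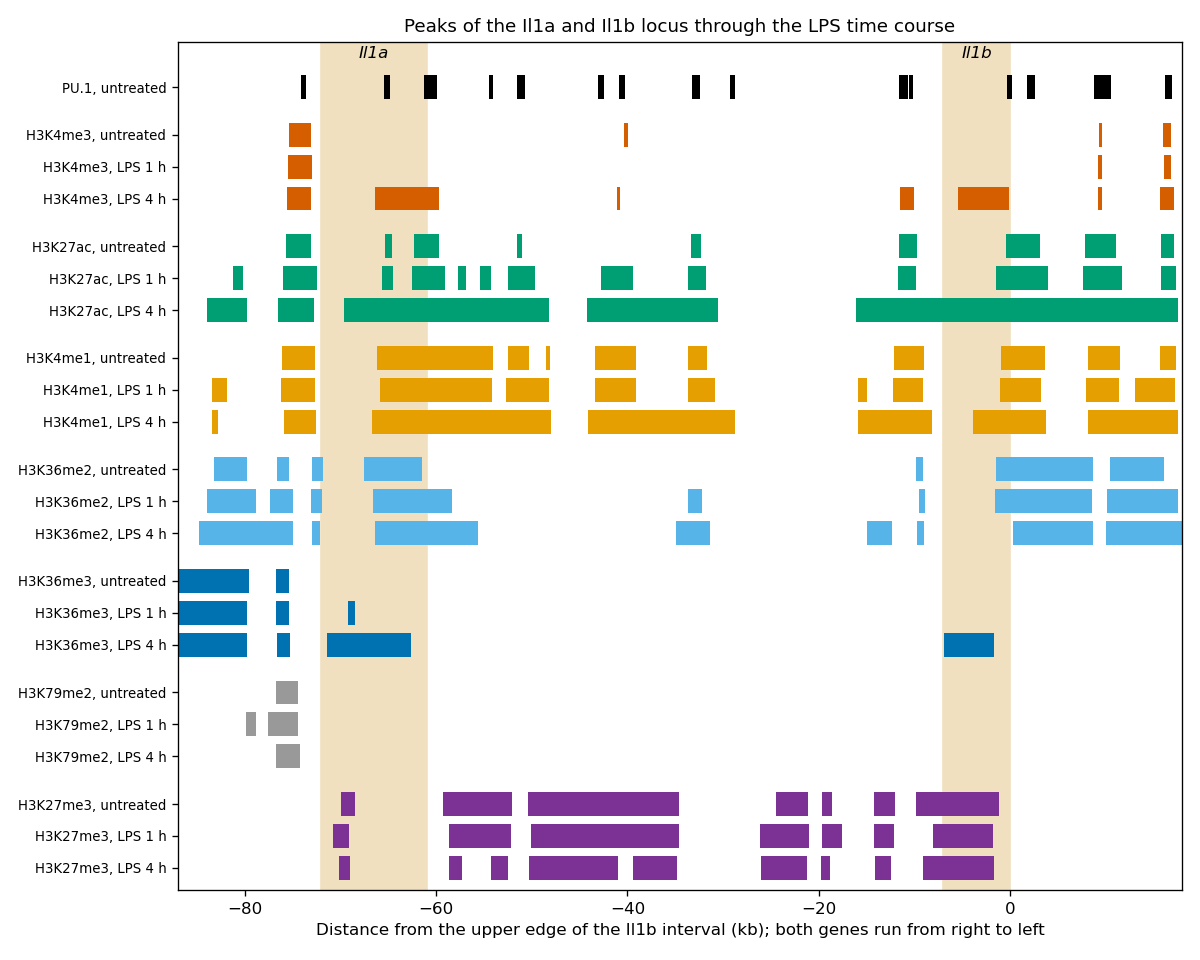
Peaks of PU.1 and of 7 histone marks across the locus, 1 row per list, in untreated cells and after 1 h and 4 h of LPS. The x axis is the distance in kb from the upper edge of the Il1b interval, shaded bands are the gene intervals, and bars are peaks. H3K4me3 and H3K36me3 bars appear over both genes at 4 h, while the H3K27me3 bar over Il1b is present at all 3 stages.

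H3K4me3 had no peak over either gene before LPS or at 1 h and had one over each at 4 h. Over Il1a the 4 h peak was chr2:129130597-129137266, 6670 bp long. Over Il1b it was chr2:129191584-129196914, 5331 bp long. These were the widest and the third widest of the 2142 peaks of the 4 h list that had no overlap in the untreated list, whose median width was 459 bp. The share of the interval under H3K4me3 was 0%, 0% and 49.1% at Il1a before LPS, at 1 h and at 4 h, and 0%, 0% and 76.1% at Il1b. Across the locus H3K4me3 had 4, 3 and 7 peaks at these stages. Of the 7 at 4 h, 4 had no untreated overlap, against 9.64% of the 4 h peaks of the genome, and of the 3 at 1 h none did, against 5.69%. The other new ones were a 1439 bp peak at chr2:129185544-129186982, below Il1b, and a 303 bp peak at chr2:129155941-129156243. The locus had 13.4 percentage points more H3K4me3 cover at 4 h than in untreated cells. Among windows of the same length with H3K4me3 in either list, 0.0205% had at least 10 points more, and none had as much more as the locus. The windows were laid end to end along each chromosome, whereas the locus was placed around both genes. The locus was also selected on this gain, so its place among the windows is no test.

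H3K36me3, deposited behind elongating polymerase, followed the same timing at 4 h but had a first trace at Il1a at 1 h. The Il1a interval was covered to 0%, 6.42% and 79.5% before LPS, at 1 h and at 4 h. The 1 h trace was 1 peak of 706 bp in the lower part of the gene, chr2:129127789-129128494. The Il1b interval was covered to 0%, 0% and 74.5%. At 4 h the Il1a peak spanned chr2:129125568-129134315 (8748 bp) and the Il1b peak chr2:129190113-129195328 (5216 bp). Each was shifted toward the end of its gene relative to H3K4me3: its lower edge lay 5029 bp below that of H3K4me3 at Il1a and 1471 bp below at Il1b. The marks still shared 3719 bp at Il1a and 3745 bp at Il1b, which is 55.8% of the H3K4me3 peak at Il1a and 70.2% at Il1b. In the locus 1 of 3 H3K36me3 peaks was new at 1 h and 2 of 4 at 4 h, against 11.8% and 11.5% of peaks in the genome. The cover of the locus was 13.2 points higher at 4 h than in untreated cells, and that of 1.52% of windows was at least 10 points higher. Neither gene's H3K36me3 peak had a high deposited −log10 q, which was 1.55 at Il1a and 1.15 at Il1b. If −log10 q must reach 5 both were gone, so each gene differed by 0 points, and the locus by -7.05 points.

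H3K79me2, the other gene body mark, did not follow H3K36me3 into either gene. It covered 0% of both intervals at all 3 stages. Its peaks lay in the lower flank, toward Ckap2l, over 15.9%, 27.3% and 16.7% of that 15 kb stretch before LPS, at 1 h and at 4 h. Of its peaks in the locus 1 of 2 at 1 h and 0 of 1 at 4 h were new, against 16.6% and 19.3% in the genome. The lower flank also carried H3K36me3 over 58.2%, 57.8% and 57.5% of its length and H3K4me3 over 15.6%, 16.7% and 16.5% at the same stages, so both marks hardly moved there while they appeared over both interleukin genes.

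H3K27ac, the mark of active promoters and enhancers, had the largest difference of the 7 marks in the locus at 1 h when all peaks were used, and the widest cover at 4 h. If −log10 q must reach 5, the difference at 1 h was 10.2 points for H3K27ac, against 26.1 points for H3K4me1 and 11.6 points for H3K36me2. It covered 16.8% of the locus before LPS, 30.7% at 1 h and 73.1% at 4 h. The peaks numbered 9, 13 and 5, since separate peaks joined into longer ones. At 4 h a peak of 21446 bp ran over most of Il1a and the sequence beyond its start (chr2:129127375-129148820), one of 13659 bp lay between the genes (chr2:129152764-129166422), and one of 33732 bp held the whole Il1b interval (chr2:129180889-129214620). The last ranked 44 by width of 34788 H3K27ac peaks at 4 h. In the Il1a interval the cover was 18.8%, 25.0% and 78.4% before LPS, at 1 h and at 4 h. In the Il1b interval it was 6.08%, 21.1% and 100%. Il1a was thus ahead of Il1b by 12.7 points before LPS and by 3.89 points at 1 h, and stood at -21.6 points (Il1a minus Il1b) at 4 h. Already at 1 h the later H3K4me3 peak of Il1a was covered by H3K27ac to 60.1%, against 50.0% in untreated cells, and that of Il1b to 26.1%, against 6.38% in untreated cells.

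New H3K27ac peaks were 4 of 13 at 1 h, all outside the 2 gene intervals, against 9.05% of peaks in the genome. At 4 h 1 of 5 was new, against 21.3%. Cover of the locus was 13.9 points higher at 1 h than in untreated cells, and that of 0.392% of windows in the genome was at least 10 points higher. At 4 h it was 56.4 points higher, and 2.86% of windows were at least 10 points higher. Of all 10281 windows compared at 4 h, 1 had as large a difference as the locus. These windows were not placed around genes, whereas the locus was, so this rank is no test. The H3K27ac lists covered 83.6 Mb of the genome before LPS, 73.1 Mb at 1 h and 90.7 Mb at 4 h, so the higher cover at 1 h came in a list that was shorter as a whole.

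H3K4me1 was in place before LPS at Il1a and reached into the body of Il1b at 4 h. An untreated peak of 12137 bp, chr2:129130788-129142924, covered 97.1% of the stretch that later had H3K4me3 at Il1a. At Il1b the untreated peak chr2:129196065-129200701 reached 15.9% of the later H3K4me3 stretch. The Il1a interval was covered to 47.4%, 44.4% and 52.3% before LPS, at 1 h and at 4 h, and the Il1b interval to 13.4%, 14.1% and 54.7%. Il1a minus Il1b was therefore 34.0 points before LPS, 30.3 points at 1 h and -2.41 points at 4 h. Between the genes, cover was 34.8%, 41.8% and 66.8%. Of the H3K4me1 peaks in the locus 2 of 11 were new at 1 h and 1 of 7 at 4 h, against 7.27% and 15% in the genome. The locus as a whole was 24.6 points higher at 4 h than in untreated cells, and 0.687% of windows were at least 10 points higher. The contrast between the genes rests on peaks of any −log10 q. If −log10 q must reach 5, H3K4me1 at 4 h minus untreated was 52.3 points at Il1a, 0 points at Il1b and 43.8 points over the locus.

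H3K36me2 was still over Il1a at 4 h and had no peak in the Il1b interval. It covered 56.4%, 51.2% and 49.3% of the Il1a interval before LPS, at 1 h and at 4 h. It covered 21.3%, 22.8% and 0% of the Il1b interval. The peak next to it began above the interval at 4 h (chr2:129197371-129205709), whereas in untreated cells it began inside Il1b (chr2:129195513-129205660). The H3K4me3 peak of Il1a at 4 h was covered by H3K36me2 to 100% and that of Il1b to 0%. In the upper flank, beyond the start of Il1b, H3K36me2 covered 79.4%, 88.9% and 90.5%. New peaks in the locus were 1 of 8 at 1 h and 2 of 8 at 4 h, against 20.4% and 25.2% in the genome. The cover of the locus was 15.5 points higher at 4 h than in untreated cells, but that of 23.6% of windows was at least 10 points higher, and the whole list was longer, with 348.8 Mb at 4 h and 281.1 Mb in untreated cells. If −log10 q must reach 5, the Il1b interval differed by 22.8 points at 1 h and 0 points at 4 h from untreated cells.

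**Figure D2:**
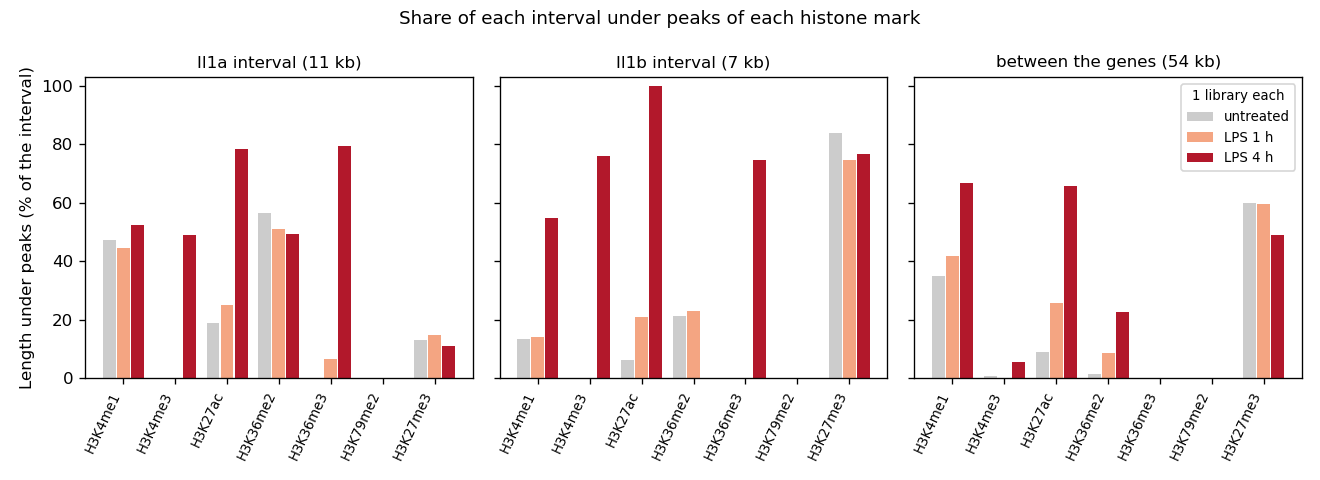
Percent of the Il1a interval, of the Il1b interval and of the stretch between the genes under peaks of each histone mark, in untreated cells and after 1 h and 4 h of LPS, with 1 library per bar and no error. At 4 h H3K4me3 reached 49.1% at Il1a and 76.1% at Il1b, H3K36me2 49.3% and 0%, and H3K27me3 10.9% and 76.6%.

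H3K27me3 stayed over Il1b through the time course although the active marks appeared there. The Il1b interval was covered to 83.7%, 74.8% and 76.6% before LPS, at 1 h and at 4 h, and the Il1a interval to 13.1%, 14.8% and 10.9%. Over Il1b the peak was chr2:129189008-129195236 at 1 h and chr2:129187936-129195359 at 4 h. At 4 h it held 100% of the H3K36me3 peak of Il1b and 70.8% of its H3K4me3 peak, against 13.7% and 0% at Il1a. Among all H3K36me3 peaks of the genome at 4 h, 0.404% were covered by H3K27me3 over at least 50% of their length. The deposited fold enrichment of the Il1b peak was 1.41 at 4 h, against 1.35 in untreated cells, and the highest of any H3K27me3 peak of the locus was 1.96. Peak intervals do not show how much of a mark is present, nor whether marks on the same bases sit in the same cells.

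Between the genes H3K27me3 covered less at 4 h. It covered 60.1%, 59.6% and 48.9% of the 54 kb before LPS, at 1 h and at 4 h. Next to Il1a, peaks of 1321 bp and 1702 bp at 4 h lay where untreated cells had 1 peak of 7280 bp (chr2:129137662-129144941). Further on, peaks of 9283 bp and 4629 bp at 4 h lay where untreated cells had 1 of 15787 bp (chr2:129146575-129162361). The H3K27ac and H3K27me3 lists shared 41 bp in the locus before LPS, 6000 bp at 1 h and 22762 bp at 4 h. No H3K27me3 peak of the locus was new at 1 h (0 of 7) or at 4 h (0 of 9), against 18% and 28.2% in the genome. The locus differed by -6.46 points at 4 h minus untreated, while the list as a whole covered 424.8 Mb at 4 h and 362.5 Mb in untreated cells. No H3K27me3 peak of the locus had a −log10 q of at least 5.

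Losses were few. Over the 7 marks, 1 of the 40 untreated peaks of the locus had no overlap at 1 h, against 11.7% in the genome, and the same 1 of 40 had none at 4 h, against 8.75%. It was an H3K4me3 peak of 471 bp at chr2:129156605-129157075, between the genes.

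The chromatin state segmentations, which the authors deposited for untreated cells, 1 h and 4 h with 27 states each, divide the genome into steps of 200 bp. In the locus 32% of the steps had another state at 1 h than in untreated cells, against 11% of the genome, and 68.6% at 4 h, against 12.2%. In untreated cells 1816.3 Mb of the genome was state 27, which holds almost none of the marks. That state held 14.3% of the locus steps. The share of the genome is thus taken mostly over unmarked steps and is not a like background for the locus. In the Il1a interval 47.3% of the steps had another state at 1 h and 94.5% at 4 h, and in the Il1b interval 74.3% and 100%. Locus segments numbered 72, 83 and 102 before LPS, at 1 h and at 4 h, so the locus was cut into more pieces with time. The whole segmentations held 544182, 544296 and 573786 segments, so the genome was also cut into more pieces at 4 h. The segmentation with 18 states, which the labels list for untreated libraries other than H3K27ac and H3K27me3, had 57 segments in the locus.

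The state names are numbers, and each is described here by the marks whose peaks cover it across the genome. At 4 h Il1b had 2.8 kb of state 23 (H3K4me3 with H3K27ac), 2.4 kb of state 14 and 1.0 kb of state 24 (H3K4me1, H3K4me3 and H3K27ac). State 14 is H3K36me3 with H3K4me1, and H3K27ac covered 57.5% of it in the genome at 4 h. The state 14 stretch of Il1b, chr2:129190601-129193000, had H3K36me3 and H3K27ac peaks over it but no H3K4me1 peak in the 4 h list. In untreated cells the Il1b interval was mostly state 19, covered by H3K27me3, with 5.8 kb. Il1a at 4 h had 4.6 kb of state 24 and 3.2 kb of state 15, covered by H3K36me3. In untreated cells it was more mixed, with 3.6 kb of state 27, which holds almost none of the marks, and 2.2 kb of state 1, covered by H3K36me2. Of the H3K4me3 states at 4 h, state 24 was the longer in the Il1a interval, where state 23 held 0.4 kb, and state 23 was the longer in the Il1b interval. State 23 does not mean that H3K4me1 was absent. Across the genome 45.6% of its length was under H3K4me1 at 4 h, and H3K4me1 covered 70.2% of the H3K4me3 peak of Il1b.

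The state segmentations and the peak lists did not give the same account of H3K27me3 at Il1b. At 1 h 4.0 kb of Il1b had moved from state 19 to state 27, and 1.6 kb was left in state 19, whereas the H3K27me3 list still covered 74.8% of the interval. At 4 h no step of the interval was in state 18 or 19, which are the H3K27me3 states present elsewhere in the locus, whereas the list covered 76.6%. Between the genes, state 19 held 28.4 kb, 26.2 kb and 10.0 kb before LPS, at 1 h and at 4 h, and state 17 (H3K4me1 with H3K27ac) 3.6 kb, 7.8 kb and 19.4 kb.

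PU.1 had 15 distinct peaks in the locus in untreated cells. Their median fold enrichment was 19.4, against 6.33 over all 99565 PU.1 peaks, as the authors' peak caller gave it. Of the 15, 13 were above the median of all. The strongest was chr2:129198741-129199658, with a fold of 65.2, rank 13 of the genome. Its summit lay 2224 bp beyond the upper edge of the Il1b interval. The peak at the start of Il1b itself, chr2:129196688-129197247, had a fold of 29.2. The peak at the start of Il1a, chr2:129135723-129137114, had 2 summits and a fold of 16.2, and a second peak inside Il1a, chr2:129131499-129132179, had 19.4. So the peak at the start of Il1b had the higher PU.1 enrichment of the 2 genes. The positions of these summits are not alike: the higher summit at Il1a lay 639 bp beyond the upper edge of its interval, and the summit at Il1b lay inside its interval. The other summit of the Il1a peak, at chr2:129135972 with a fold of 13.4, also lay inside its interval. The weakest peak of the locus, at chr2:129142568-129142919, had a fold of 3.85.

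The PU.1 peaks of both starts lay at the upper end of the H3K4me3 peaks that came at 4 h. At Il1a the higher summit was 627 bp inside the end of the H3K4me3 peak, and at Il1b the summit was 47 bp beyond it. Both PU.1 peaks were under H3K4me1 and H3K27ac in untreated cells. The strongest peak, above Il1b, had H3K4me1, H3K27ac and H3K36me2 over it at all 3 stages and H3K4me3 at none.

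H3K4me1 overlapped 15 of the 15 PU.1 peaks at 4 h, against 70.3% in the genome, and 14 in untreated cells, against 69.6%. The one reached only at 4 h was chr2:129167776-129168229, which lacked H3K27ac at all 3 stages. H3K27ac overlapped 11 before LPS, 14 at 1 h and 14 at 4 h, against 45.2%, 40.4% and 45.8% of PU.1 peaks in the genome. The 3 PU.1 peaks that came under H3K27ac by 1 h all lie between the genes and all had H3K27me3 over them in untreated cells. No other PU.1 peak of the locus had H3K27me3 then, so 3 of 15 did, against 10.8% in the genome. H3K4me3 overlapped 9 at 4 h, against 25.7% in the genome, and 4 in untreated cells, against 25%. The 5 added were both starts, the second peak inside Il1a and a pair of neighbouring peaks below Il1b (chr2:129185416-129186372 and chr2:129186455-129186825).

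**Figure D3:**
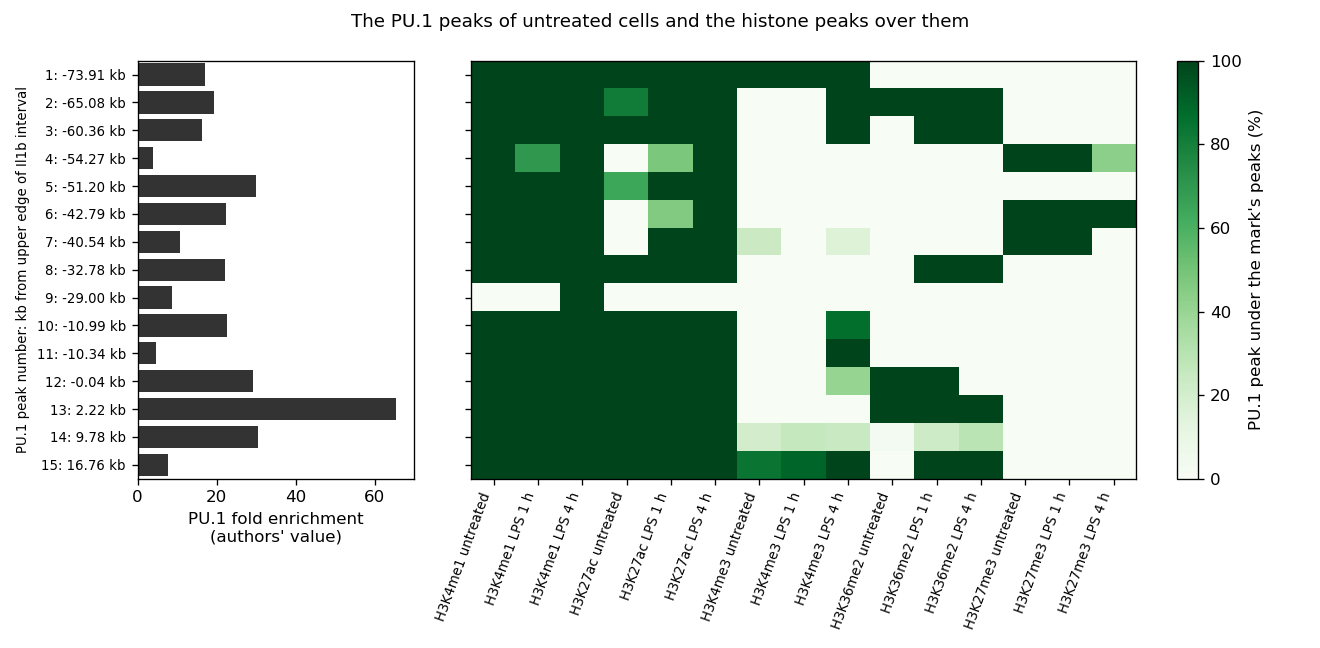
The 15 PU.1 peaks of the locus in untreated cells, ordered along the chromosome and named by number and by distance in kb of the summit from the upper edge of the Il1b interval. Bars on the left give the authors' fold enrichment, and shades give the percent of each PU.1 peak under peaks of 5 marks in untreated cells and after 1 h and 4 h of LPS. H3K27ac reached 14 peaks by 1 h, and peak 13, with a fold of 65.2, had no H3K4me3 at any stage.

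With flavopiridol before LPS the locus had less H3K4me1 and H3K36me2 than with LPS alone. H3K4me1 covered 22.5% of the locus with flavopiridol and LPS for 4 h, against 60.0% with LPS for 4 h alone, a difference of -37.5 points. Of the windows of the genome with H3K4me1 in either list, 21.1% were at least 10 points lower in that comparison. H3K36me2 covered 12.8% with flavopiridol and LPS, against 42.6% with LPS alone, a difference of -29.8 points, and 41.4% of windows were at least 10 points lower. The lists of drug-treated cells were shorter as a whole: H3K4me1 covered 117.2 Mb with flavopiridol and LPS, against 200.4 Mb with LPS alone, and H3K36me2 230.0 Mb, against 348.8 Mb. The part of these totals in the values of the locus was not tested. If −log10 q must reach 5 the differences were -43.8 points for H3K4me1 and -15.5 points for H3K36me2.

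Without LPS the drug already went with less cover of the locus. H3K4me1 was at 27.5% of the locus with flavopiridol, against 35.4% in untreated cells, and 12.4% of windows were at least 10 points lower. The whole H3K4me1 list was shorter with the drug, at 143.7 Mb with flavopiridol against 192.1 Mb in untreated cells. H3K36me2 was at 16.4% with flavopiridol, against 27.2% in untreated cells, a difference of -10.8 points, and 8.32% of windows were at least 10 points lower. A larger share of windows, 18.1%, was at least 10 points higher. The whole H3K36me2 list was longer with the drug, at 304.6 Mb with flavopiridol against 281.1 Mb in untreated cells. Both drug differences were 0 points if −log10 q must reach 5, since no peak of either mark in the locus reached it in either condition. Over the locus as a whole neither mark was wider with LPS after the drug: H3K4me1 stood at 22.5% with flavopiridol and LPS against 27.5% with flavopiridol alone, and H3K36me2 at 12.8% with flavopiridol and LPS against 16.4% with flavopiridol alone. In the upper flank alone H3K36me2 went the other way, at 58.95% with flavopiridol and LPS against 51.9% with flavopiridol alone, a difference of 7.07 points.

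The wide H3K4me1 domain of Il1a was in pieces under flavopiridol. A single peak ran over the start of Il1a without the drug, of 18734 bp with LPS for 4 h and of 12137 bp in untreated cells. With flavopiridol and LPS the start had a peak of 2262 bp (chr2:129135754-129138015), and with flavopiridol alone one of 3267 bp (chr2:129134531-129137797). H3K4me1 peaks were shorter with the drug in the genome too. Their median width was 1224 bp with flavopiridol and LPS, against 1615 bp with LPS alone. It was 1340 bp with flavopiridol alone, against 1726 bp in untreated cells. H3K4me1 covered 10.6% of the Il1a interval with flavopiridol and LPS, against 52.3% with LPS alone, and 22.6% with flavopiridol, against 47.4% in untreated cells. In the Il1b interval it covered 5.83% with flavopiridol and LPS, against 54.7% with LPS alone, and 10.8% with flavopiridol, against 13.4% in untreated cells. Of the 13 H3K4me1 peaks with flavopiridol and LPS, 10 overlapped a PU.1 peak of untreated cells, against 6 of 7 with LPS alone. The share of all H3K4me1 peaks of the genome that do so was not computed, so these counts cannot be called high or low. With the drug, alone or with LPS, H3K4me1 still overlapped 13 of the 15 PU.1 peaks, against 65.6% of PU.1 peaks in the genome with flavopiridol alone and 58.4% with flavopiridol and LPS.

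H3K36me2 with the drug differed between the genes in another way. In the Il1a interval it covered 8.99% with flavopiridol and LPS, against 49.3% with LPS alone, and 16.2% with flavopiridol, against 56.4% in untreated cells. In the Il1b interval it covered 0% with flavopiridol and LPS and 0% with LPS alone, and 25.9% with flavopiridol, against 21.3% in untreated cells. So LPS at 4 h went with no H3K36me2 peak in the Il1b interval both with and without the drug. The labels list no flavopiridol library of H3K4me3, H3K27ac, H3K36me3, H3K79me2, H3K27me3 or PU.1.

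**Figure D4:**
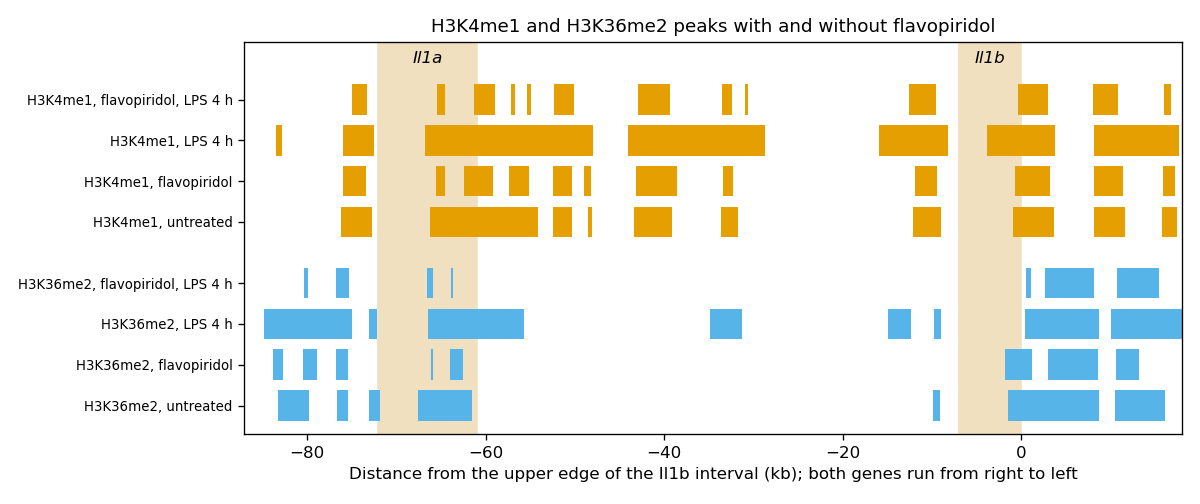
H3K4me1 and H3K36me2 peaks across the locus with flavopiridol then LPS for 4 h, with LPS for 4 h alone, with flavopiridol alone and in untreated cells, 1 library per row. The x axis is the distance in kb from the upper edge of the Il1b interval, and shaded bands are the gene intervals. The H3K4me1 domain over the start of Il1a is 18734 bp long with LPS alone and in short peaks in both drug rows.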

How the data were processed

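The files hold peak lists from RAW264.7 cells, 25 of histone marks (broad peaks) and 1 of PU.1 (narrow peaks with summits), and 4 segmentations of the genome into chromatin states. The submitters' processing notes name Bowtie 1.0.1, MACS2 and the build mm9. Call settings, the MACS2 version, the control and the segmentation tool are not stated in the sources. The fold enrichment of a peak is a ratio that the authors deposited, as are its −log10 p and −log10 q and its score. Depth is unknown, and it affects how many and how wide peaks are called.

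Distinct intervals on chromosomes 1 to 19 and X were used, with Python 3.11.15, numpy 2.4.6, scipy 1.17.1 and matplotlib 3.10.9. Interval arithmetic was tested on simulated lists. Cover is the percent of a region's bases under the peaks of a list. A new peak has no overlap of 1 bp or more in the untreated list. Windows have the length of the locus and were laid end to end from the first base of each chromosome. Only windows with some cover of the mark in either list compared were kept, so their number differs between comparisons. Among them a difference of 10 percentage points was counted. State steps are 200 bp, and the 18-state segmentation enters no comparison. Cover and the counts of new and lost histone peaks were computed from intervals and not from folds. Deposited folds and −log10 q of single histone peaks are quoted as given, and −log10 q also sets the stricter alternative. Between overlapping peaks of the LPS 4 h and untreated lists, the Spearman rho across peaks was 0.0478 to 0.399 for fold over the 7 marks. For width it was 0.621 to 0.925 (peaks are not independent replicates). Samples were grouped by their titles, each group being 1 library, and no test was made. The rule for named peaks took the PU.1, H3K4me3 and H3K27ac peaks of the locus and the widest peak of each other list, and further peaks at the 2 genes were named after their values were seen. The locus, lists and motifs were chosen with earlier results of these data known. Marker genes and other interleukin genes were not described, since no mm9 annotation was used here. Alternatives were a −log10 q of at least 5, peaks merged within 1 kb, peaks of at least 1 kb, 50% overlap, gene intervals widened by 2 kb, segments of at least 400 bp and all PU.1 lines.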

Additional observations from a re-analysis of the deposited data

Results flagged for a closer look

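The cover of the locus after LPS for 4 h went opposite ways with and without flavopiridol. For H3K4me1, LPS after flavopiridol minus flavopiridol alone was -5.01 percentage points, and LPS minus untreated was 24.6 points. For H3K36me2, LPS after flavopiridol minus flavopiridol alone was -3.51 points, and LPS minus untreated was 15.5 points. The difference was not tested, since each value rests on 1 library a side. The lists as a whole moved the same way: with the drug H3K4me1 covered 117.2 Mb after LPS, against 143.7 Mb with flavopiridol alone, and H3K36me2 230.0 Mb, against 304.6 Mb. Without the drug H3K4me1 covered 200.4 Mb after LPS, against 192.1 Mb in untreated cells, and H3K36me2 348.8 Mb, against 281.1 Mb.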

How the results depend on the processing

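Each result was recomputed under the alternatives that apply to it, which gave 184 values for 55 results. Of these, 160 lay within the counting interval, whatever their sign, or within 1.5 times a count, 23 moved, and 1 reversed. A value was called reversed only where the counting interval left out 0. The counting interval takes steps of 200 bp as independent, which neighbouring steps are not, so it is no measure of spread between cultures. Merging peaks within 1 kb, keeping peaks of at least 1 kb, dropping segments under 400 bp and using all PU.1 lines moved none of them. The reversal was H3K36me3 in the locus, LPS 4 h minus untreated, at -7.05 percentage points if −log10 q must reach 5, against 13.2 points with all peaks. No H3K36me3 peak of Il1a or Il1b passes that threshold, so both gene differences were then 0 points. With the same threshold the locus differences were 26.1 points for H3K4me1 at 1 h and 43.8 points at 4 h, -2.28 points for H3K79me2 at 4 h and 0 points for H3K27me3 at 4 h, none of whose peaks passes. For flavopiridol minus untreated they were 0 points for H3K4me1 and 0 points for H3K36me2, and for flavopiridol with LPS minus LPS they were -43.8 points for H3K4me1 and -15.5 points for H3K36me2. H3K4me1 at 4 h was then 52.3 points higher in the Il1a interval and 0 points higher in the Il1b interval. H3K36me2 in the Il1b interval was 22.8 points higher at 1 h and 0 points at 4 h. Widening the gene intervals by 2 kb gave 58.3 points for H3K36me3 at Il1a, and 48.5 points for H3K4me3 and 47.4 points for H3K36me3 at Il1b, all at 4 h minus untreated. Over the 7 marks the new peaks numbered 14 at 1 h and 17 at 4 h if at least 50% of a peak must be covered to count as present, and 15 at 1 h with the q threshold. Lost peaks numbered 2 at 1 h and 3 at 4 h with the q threshold, and 2 at 4 h with 50% cover. All of these counts of new and lost peaks were higher than with all peaks and an overlap of 1 bp. The shares in the genome under these settings were not computed, so the counts are not a result about the locus. Across overlapping peaks of the LPS 4 h and untreated lists, the −log10 q had a Spearman rho of 0.0553 to 0.415 over the 7 marks, and whether the threshold keeps the stronger peaks was not tested. With 1 library per mark and condition no replicate can be left out, so no spread enters any value. No paired analysis was possible because each group holds 1 sample. Depth, antibody and culture cannot be told apart from the condition.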
